A study of Mus musculus with 6 samples.

Results

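Genes that write, erase and read out chemical marks on chromatin, or that move nucleosomes with the energy of ATP, were followed in sorted mouse bone marrow cells. The members were chosen by their symbols in the platform annotation: histone deacetylases (Hdac), sirtuins (Sirt), lysine demethylases (Kdm), the Kmt2 and Setd methyltransferases, DNA methyltransferases (Dnmt), Tet dioxygenases, Uhrf1, Uhrf2, the Polycomb genes Ezh1, Ezh2, Eed and Suz12, and the Smarc and Chd remodellers. Kdm6a and the Kdm5 paralogues of the sex chromosomes were left out by the rule. This gave 81 genes of 18193 with a probe set of their own, and the rule uses symbols alone, although it was written with earlier results of these data known.

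The cells came from femur and tibia marrow of Hdc-GFP mice on a C57BL/6 background, in which green fluorescent protein reports the activity of the gene of histidine decarboxylase. The sort took cells with a positive or high reporter signal that carried the myeloid integrin CD11b. Staining for Gr1, an epitope of Ly6G and Ly6C that rises as granulocytes mature, separated a low fraction, Gr1lo, from a high fraction, Gr1hi, and each fraction was measured on 3 arrays. All 6 samples are labelled female, no age is given, and no treatment is named. Whether the replicates are different animals is not said in the labels. The p-values therefore measure only the spread between these samples, part of which may be technical. The replicate 3 arrays of both groups differed from the others in Xist, as given below. The description of Gr1lo replicate 3 puts a sign after the reporter name that can be read as a hyphen or as a minus, while its title matches its group. Hdc itself lay between 10.75 and 10.99 in Gr1lo and between 11.99 and 12.52 in Gr1hi, and Itgam, which encodes CD11b, between 11.16 and 11.49 and between 12.05 and 12.25.

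As background, DNA methylation is copied onto new strands at replication by Dnmt1 with Uhrf1, is laid down afresh by Dnmt3a and Dnmt3b, and is oxidized by Tet enzymes. Polycomb repressive complex 2 (PRC2), with Ezh2 or Ezh1 as its catalytic subunit, methylates histone H3 on a lysine linked to silencing, which Kdm6b can demethylate. The Kmt2 and Setd1 enzymes methylate another lysine of H3 at active promoters and enhancers, and Kdm5 enzymes remove that mark. Granulocytes condense their nuclei and leave the cell cycle as they mature, and Ezh2, Uhrf1 and Dnmt1 are known to be most abundant in cycling cells.

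Levels below are log2 probe set values, and each difference is Gr1hi minus Gr1lo on that scale, so that 1 unit is a 2-fold difference. A gene was called where limma gave an adjusted p under 0.05 over all 12732 tested genes. Of the 81 members 76 passed a filter on low values and were tested. Chd3, Chd5, Kdm4d, Sirt4 and Smarca1 were set aside, with values between 1.58 and 3.08 on all arrays. Controls of absent transcripts reached 2.77, so such values cannot be told from background.

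Of the 76 tested members 29 were lower and 25 were higher in Gr1hi, which makes 54 called members, beside 56.4% called among all tested genes. Among all tested genes 31.8% were lower and 24.6% higher, against 38.2% and 32.9% of the members, so both shares lay above the background by less than 10 percentage points. The falls were the larger differences: 10 members (13.2%) fell at least 4-fold and 2 (2.63%) rose at least 4-fold, beside 9.04% and 4.16% of all tested genes. The median difference was -0.02 over the tested members and 0.03 over all tested genes. In 31 members every Gr1hi array lay below every Gr1lo array, and in 30 members every one lay above, beside 34.8% and 30.7% of all tested genes. Tet1 and Smarcd1 passed the filter with fewer than 3 arrays above it in 1 group; Tet1 was called and Smarcd1 was not.

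The direction of small differences depends on how arrays are scaled. Centring each array on the median of the tested genes moved the median difference of all tested genes to 0.70, and aligning the hybridization controls (control centring) moved it to -0.23. The members then split into 45 higher and 18 lower with the first centring, and 17 higher and 33 lower with the second. The background moved with them, to 65.5% higher and 18.2% lower, and to 14.6% higher and 38.1% lower. Calls that these centrings make, end or turn are named with each group of genes. Repeating quantile normalization left the counts near those of the deposited scale, with 27 members higher and 29 lower.

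Libraries that stand apart from their labels were looked at before the results. The Y-linked transcript Eif2s3y lay between 9.02 and 10.66 on all 6 arrays, which the female label does not give. The X-inactivation transcript Xist lay between 1.97 and 2.43 in replicates 1 and 2 of both groups but at 10.95 and 10.14 in the replicate 3 arrays of Gr1lo and Gr1hi. Without both replicate 3 arrays 28 members were lower and 23 higher, and Kdm4b, Setd2, Sirt3 and Smarca2 lost their calls while Smarcd3 gained one. The 3′ minus 5′ signal of the Actb controls, a sign of RNA integrity, was 0.77 to 0.94 in Gr1lo and 0.65 to 0.76 in Gr1hi. For Gapdh it was 0.25 to 0.45 and 0.14 to 0.35.

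Maintenance of DNA methylation carried some of the largest falls. Uhrf1, which recognizes half-methylated DNA and recruits Dnmt1, read 11.60, 11.69 and 11.17 on the Gr1lo arrays and 6.43, 6.17 and 6.50 on the Gr1hi arrays. All Gr1hi arrays lay more than 4 units below all Gr1lo arrays. Uhrf1 fell by 5.12 (SE 0.17, adjusted p = 1.10e-07), or 34.7-fold, and by 3.48 on a further probe set. Dnmt1, the maintenance methyltransferase, read 11.74, 11.73 and 11.74 in Gr1lo and 8.81, 8.99 and 8.90 in Gr1hi, and fell by 2.83 (SE 0.09, adjusted p = 1.10e-07). Its other probe sets differed by -3.53 and -3.36. Dnmt1 thus stayed far above the absent-transcript level in Gr1hi.

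The other Dnmt genes and Uhrf2 moved less. Uhrf2, the relative of Uhrf1, fell by 1.07 from 6.45 ± 0.43 to 5.38 ± 0.18 (SD, n = 3 per group, as for all ± values here), a call lost after median centring. The de novo enzyme Dnmt3a read 6.88, 7.07 and 6.69 in Gr1lo and 7.14, 7.33 and 7.45 in Gr1hi. Its groups did not overlap, but the difference of 0.42 did not pass the test (adjusted p = 0.0659). Dnmt3a was called higher after median centring, with quantile normalization repeated, without the eBayes trend, with array weights and without Gr1lo replicate 2. Dnmt3b fell by 0.66 near background, from 3.51 ± 0.24 to 2.85 ± 0.11, and differed by 0.0172 after median centring. Dnmt3l, a cofactor without catalytic activity, stood at 3.94 ± 0.22 and 4.18 ± 0.48 (adjusted p = 0.435) and was called higher after median centring. Of the 6 Dnmt and Uhrf genes 4 fell and 0 rose on the deposited scale, beside 31.8% and 24.6% of all tested genes. After median centring 2 fell and 2 rose, beside 18.2% and 65.5%.

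The Tet dioxygenases went in different directions. Tet1 read 4.35, 5.0 and 5.02 in Gr1lo and 2.33, 2.42 and 2.67 in Gr1hi, where it reached the level of absent transcripts, which limits what its fall of 2.32 measures. Tet2, the family member best known from myeloid cells, read 8.76, 8.44 and 8.72 in Gr1lo and 9.57, 9.31 and 9.39 in Gr1hi. The Tet2 groups did not overlap, and it rose by 0.78 (SE 0.14, adjusted p = 8.60e-04). Tet3 stood at 3.56 ± 0.06 and 3.64 ± 0.09 and was not called, but was called higher after median centring.

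The catalytic subunits of PRC2 changed in opposite directions. Ezh2 read 10.91, 10.99 and 10.67 in Gr1lo and 6.26, 6.83 and 6.25 in Gr1hi, a fall of 4.41 (SE 0.18, adjusted p = 1.78e-07) or 21.2-fold. Ezh1, its relative found in resting cells, read 3.88, 3.54 and 4.14 in Gr1lo and 6.07, 5.97 and 6.01 in Gr1hi, a rise of 2.17 (SE 0.20, adjusted p = 1.46e-05). Neither gene's groups overlapped, and both calls held under every alternative run. Of 2 other tested Ezh1 probe sets 1 was also called higher, with a difference of 0.59. Suz12, a core subunit that stabilizes the complex, fell from 11.27 ± 0.02 to 9.69 ± 0.13, and its 5 other tested probe sets were all called lower. Eed, the subunit that binds the finished mark, read 10.88, 10.94 and 10.74 in Gr1lo and 10.95, 10.92 and 10.53 in Gr1hi. The Eed groups overlapped and it was not called (difference -0.05, adjusted p = 0.747), although after median centring it was called higher by 0.62.

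**Figure D1:**
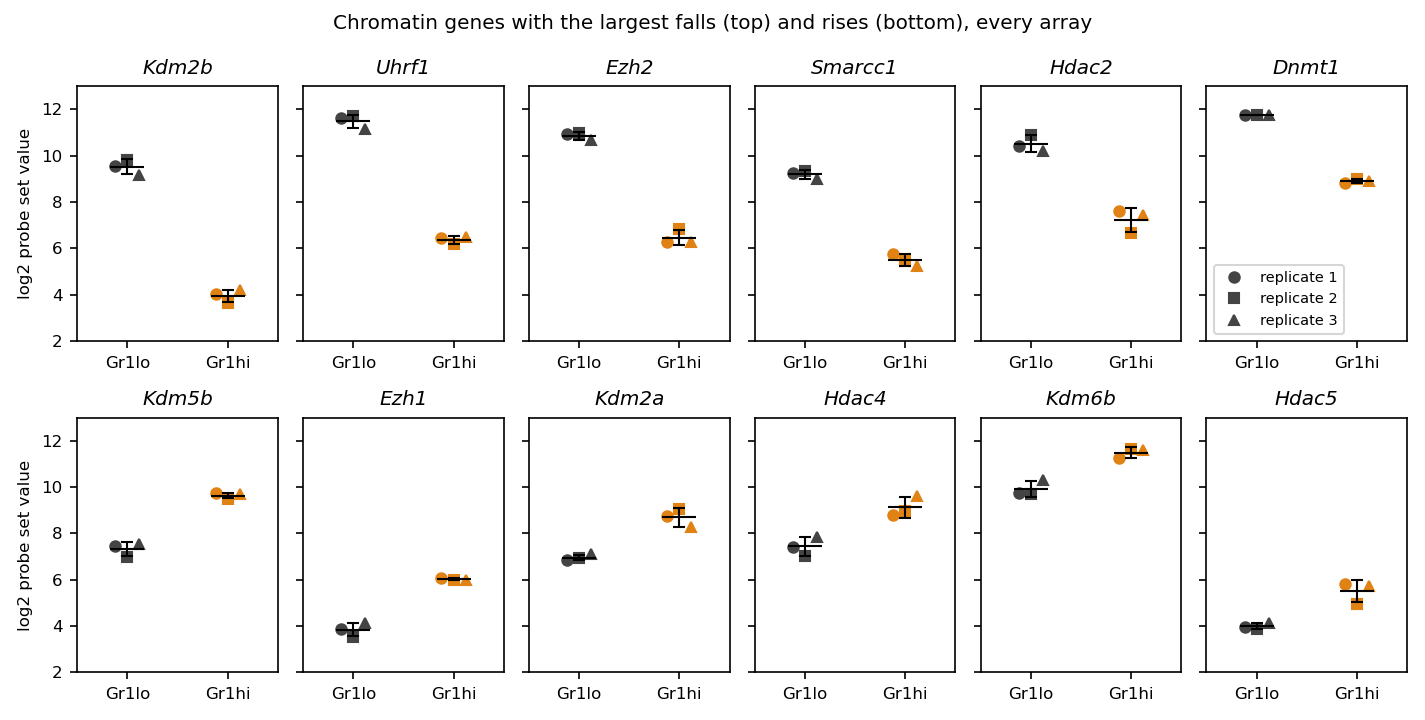
Log2 probe set values (vertical axis) on every array of Gr1lo (dark) and Gr1hi (orange) for the 6 called members with the largest falls (top) and the 6 with the largest rises (bottom); marker shape gives the replicate number, and the bar and whiskers give the mean and SD of 3 arrays. In each of the 12 genes the groups do not overlap, and Ezh2 at the top and Ezh1 at the bottom run in opposite directions.

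A search for short promoter motifs was made in the 250 bases before each RefSeq start (build GRCm38.p6), for which 65 of the 81 members had an entry. E2F-type motifs, which bind regulators of S-phase genes, were searched on both strands as TTTCCCGC, TTTGGCGC, TTTGGCGG and TTTCGCGC. At least 1 was present in 4 of 25 members that fell (16%), 0 of 16 that rose and 1 of 20 that were not called. Among all tested genes with an entry the shares were 6.59%, 2.68% and 2.94%, and 4.06% over all. A match was present in 2.26% of all genes with a RefSeq promoter entry, tested or not, and in 1.96% of their windows. These are small counts, and no test was made on them.

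The stretches around the matches of the 4 members that fell are shown because they carry these letters, with the match in capitals, 5′ to 3′ on the strand of the gene. They lie at chr17:56304088-56304175 (plus strand) for Uhrf1, chr9:20952795-20952873 (minus strand) for Dnmt1, chr11:79992856-79992934 (plus strand) for Suz12 and chrX:7947939-7948026 (minus strand) for Hdac6.
Uhrf1: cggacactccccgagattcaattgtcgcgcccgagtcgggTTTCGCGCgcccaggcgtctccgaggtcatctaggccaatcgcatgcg
Dnmt1: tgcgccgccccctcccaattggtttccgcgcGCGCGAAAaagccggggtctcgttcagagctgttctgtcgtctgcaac
Suz12: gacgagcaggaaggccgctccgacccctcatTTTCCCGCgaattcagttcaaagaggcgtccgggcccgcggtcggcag
Hdac6: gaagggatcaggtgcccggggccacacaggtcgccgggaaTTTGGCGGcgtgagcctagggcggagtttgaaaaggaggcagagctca
Relative to the start, the match began at -185 in Uhrf1, at -219 in Dnmt1 and Suz12, and at -97 in Hdac6. The Dnmt1 match lies on the other strand. The CHR-type motif TTTGAA was present in 7 of 25 members that fell and 1 of 16 that rose, against 13% and 12.1% of all tested genes in those directions. CCAAT was present in 9 and 6 (42.2% and 38.3% of all tested genes), and the E-box CACGTG in 1 and 0 (10.6% and 9.34%).

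The class I histone deacetylases, catalytic subunits of nuclear corepressor complexes, fell in 3 of 4 genes, beside 31.8% of all tested genes. Hdac2 read 10.42, 10.90 and 10.19 in Gr1lo and 7.59, 6.64 and 7.43 in Gr1hi, a fall of 3.28 (SE 0.26, adjusted p = 5.81e-06). A probe set of Hdac2 at a like level differed by -3.24, and one at the absent-transcript level by -0.04. Hdac1, which sits in the same complexes as Hdac2, fell by 0.97 from 10.69 ± 0.12 to 9.73 ± 0.05. Hdac3, the deacetylase of the NCoR and SMRT corepressors, fell by 1.00, a call lost after median centring. Hdac8 was near background at 3.60 ± 0.10 and 3.41 ± 0.14 and was not called on the deposited scale, but was called higher by 0.48 after median centring.

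Among the class II and IV deacetylases Hdac4 and Hdac5 rose. Hdac4 read 7.43, 7.03 and 7.86 in Gr1lo and 8.78, 8.98 and 9.63 in Gr1hi, a rise of 1.69 (SE 0.26, adjusted p = 4.10e-04) that a probe set of like level repeated with 1.70. Hdac5 rose by 1.52 from 3.99 ± 0.12 to 5.52 ± 0.48. Hdac6, a deacetylase of tubulin, fell by 1.34 from 4.58 ± 0.15 to 3.24 ± 0.13, and Hdac10 fell by 0.85, the latter a call lost after median centring. Hdac7, Hdac9 and Hdac11 lay between 2.93 and 4.01 on all arrays and were not called. Hdac9 and Hdac11 were called higher after median centring. Hdac7 was called lower with control centring, with a filter at the 60th percentile, without the eBayes trend and without Gr1lo replicate 1.

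Of 6 tested sirtuins, deacylases that use NAD, 3 fell and 2 rose, beside 31.8% and 24.6% of all tested genes. Sirt1, a nuclear deacetylase, read 10.40, 10.17 and 10.11 in Gr1lo and 9.43, 9.24 and 8.99 in Gr1hi, and fell by 1.01 (SE 0.14, adjusted p = 2.13e-04). The mitochondrial sirtuin genes Sirt3 and Sirt5 fell by 0.70 and 0.86. All 3 falls were lost after median centring, and that of Sirt3 also without Gr1lo replicate 1, Gr1lo replicate 3 or Gr1hi replicate 2. Sirt2, mainly cytoplasmic, rose by 1.52 from 6.87 ± 0.28 to 8.39 ± 0.23, and Sirt7, a nucleolar member, rose by 0.66 from 10.45 ± 0.15 to 11.11 ± 0.04. Sirt6 stood at 3.12 ± 0.22 and 3.06 ± 0.09 and was not called, but was called higher by 0.61 after median centring.

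Most demethylases of the JmjC class rose, and the single one that fell had the largest difference of all members. Of 11 tested 8 rose and 1 fell, beside 24.6% and 31.8% of all tested genes. After median centring 10 rose and 1 fell, beside 65.5% and 18.2% of all tested genes. With control centring 6 rose and 1 fell, beside 14.6% and 38.1%. Kdm5b, which removes the mark of active promoters, read 7.45, 6.99 and 7.54 in Gr1lo and 9.73, 9.49 and 9.68 in Gr1hi. It rose by 2.31 (SE 0.17, adjusted p = 3.49e-06), and its 3 other tested probe sets were called higher too. Kdm5a rose by 0.54, but none of its 4 other tested probe sets was called, and the call was lost with control centring or without Gr1hi replicate 3.

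Kdm6b, a demethylase of the PRC2 mark that is induced in activated macrophages, read 9.75, 9.70 and 10.31 in Gr1lo and 11.23, 11.64 and 11.59 in Gr1hi. It rose by 1.57 (SE 0.18, adjusted p = 4.72e-05), and its other probe sets rose by 1.66 and 2.94. Kdm7a rose by 1.42, from 11.11 ± 0.30 to 12.54 ± 0.11. Kdm4a and Kdm3a rose by 1.39 and 0.71, and Kdm4b rose by 0.50, the last a call lost with control centring, without Gr1lo replicate 2 or without Gr1hi replicate 1. Kdm3b (0.35, adjusted p = 0.0505) and Kdm4c (0.25, adjusted p = 0.0934) did not pass the test, though their groups did not overlap. Both were called higher after median centring, and Kdm3b in 5 other alternatives as well, the replicate block among them.

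The paralogues Kdm2a and Kdm2b, which bind unmethylated CpG islands through a zinc finger, went opposite ways. Kdm2b, which recruits a variant Polycomb complex, read 9.57, 9.83 and 9.18 in Gr1lo and 4.01, 3.65 and 4.18 in Gr1hi. It fell by 5.58 (SE 0.22, adjusted p = 1.64e-07), or 47.7-fold, and by 4.79 on a further probe set. Kdm2a read 6.85, 6.93 and 7.10 in Gr1lo and 8.77, 9.06 and 8.26 in Gr1hi, and rose by 1.74 (SE 0.21, adjusted p = 7.60e-05). Of 5 other tested Kdm2a probe sets 4 were called higher. The flavin-dependent demethylases differed as well: Kdm1b fell by 1.28 from 6.05 ± 0.22 to 4.77 ± 0.32. Kdm1a, a partner of the growth-factor-independent repressors, stood at 10.09 ± 0.10 and 9.92 ± 0.11 and was not called (adjusted p = 0.201), but was called higher by 0.50 after median centring and lower by 0.43 with control centring.

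Of 7 tested Kmt2 and Setd1 genes, which encode large methyltransferases of active chromatin and their relatives, 5 rose and 0 fell, beside 24.6% and 31.8% of all tested genes. The counts were 6 and 0 after median centring, beside 65.5% and 18.2% of all tested genes. With control centring they were 2 and 1, beside 14.6% and 38.1%. Kmt2c, an enzyme of enhancers, read 10.01, 9.72 and 10.03 in Gr1lo and 10.77, 10.84 and 10.95 in Gr1hi, and rose by 0.94 (SE 0.11, adjusted p = 8.54e-05). Kmt2e, a relative without known methyltransferase activity, rose by 0.73 from 10.09 ± 0.03 to 10.82 ± 0.09. The 3 other tested probe sets of Kmt2c and the 4 of Kmt2e were all called higher. Kmt2b, Setd1b and Kmt2d rose by 0.69, 0.53 and 0.51, and all of these calls were lost with control centring. In a test against a 1.5-fold change these genes and Kmt2e were not called. Kmt2a stood at 8.03 ± 0.08 and 8.19 ± 0.04 (adjusted p = 0.312), and was called higher after median centring and with the mean of its probe sets. Setd1a stood at 3.51 ± 0.35 and 3.2 ± 0.32 (adjusted p = 0.238), and was called lower with control centring.

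Of 6 other tested Setd genes 3 rose and 1 fell, beside 24.6% and 31.8% of all tested genes. Setd7, a lysine methyltransferase of histone and other proteins, read 10.09, 10.09 and 10.11 in Gr1lo and 11.14, 11.08 and 11.06 in Gr1hi, a rise of 1.00 (SE 0.09, adjusted p = 8.60e-06). Setd3, which methylates actin, and Setd2, the methyltransferase of transcribed gene bodies, rose by 0.56 and 0.42, calls lost with control centring. The call of Setd2 was also lost without Gr1lo replicate 1, Gr1lo replicate 3 or Gr1hi replicate 3, and the other probe set of Setd3 differed by -0.08. Setd6 fell by 1.09 from 4.56 ± 0.28 to 3.47 ± 0.14, a call lost after median centring. Setd4 (3.72 ± 0.04 and 4.02 ± 0.17) and Setd5 (8.49 ± 0.13 and 8.39 ± 0.12) were not called, but after median centring were called higher by 0.98 and 0.58. Setd4 was also called higher with quantile normalization repeated.

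**Figure D2:**
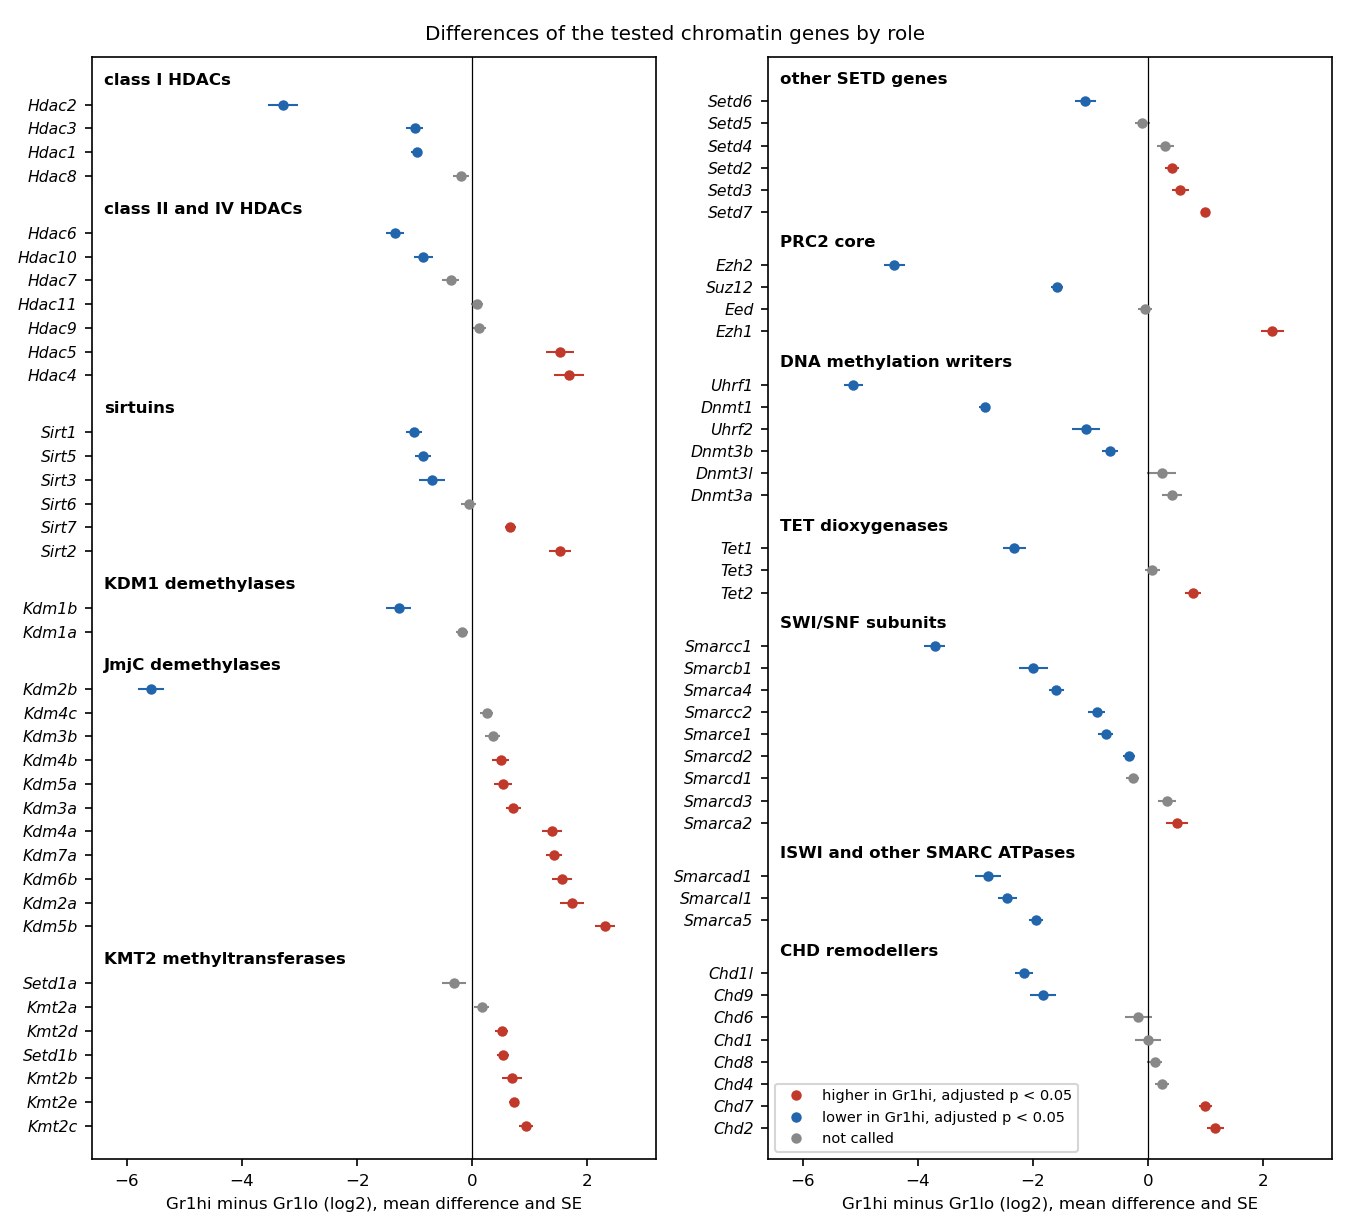
Difference between Gr1hi and Gr1lo (log2, horizontal axis) of the 76 tested members by role, with points for the estimate and whiskers for its SE; red and blue points were called higher and lower in Gr1hi at a limma adjusted p under 0.05. JmjC demethylases and Kmt2 genes lie mostly to the right of 0, and Kdm2b at -5.58 is the farthest to the left.

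Subunits of the SWI/SNF remodelling complex, which slides and evicts nucleosomes, fell in 6 of 9 tested genes and rose in 1. Among all tested genes 31.8% fell and 24.6% rose. Smarcc1, a scaffold subunit, read 9.25, 9.32 and 8.98 in Gr1lo and 5.76, 5.44 and 5.24 in Gr1hi, a fall of 3.71 (SE 0.19, adjusted p = 4.08e-07) or 13.1-fold. Its other tested probe sets differed by -4.35 and -2.74. The paralogous scaffold Smarcc2 fell by 0.89 from 8.27 ± 0.05 to 7.38 ± 0.16. Smarcb1, a core subunit, fell by 1.99, but its other tested probe sets differed by -0.48 (called lower) and 0.08 (not called). Smarce1 fell by 0.73, while its other tested probe set differed by -0.26 and was not called. Smarcd2, needed for granule formation in neutrophils, fell by 0.33 from 11.13 ± 0.13 to 10.80 ± 0.09. After median centring the calls of Smarcc2 and Smarce1 were lost and Smarcd2 was called higher by 0.35. In that setting 3 subunits fell and 4 rose, beside 18.2% and 65.5% of all tested genes. Without Gr1lo replicate 1 or Gr1hi replicate 2 Smarcd2 was not called. Smarcd1 and Smarcd3 lay between 2.47 and 3.39 and were not called on the deposited scale. After median centring they were called higher by 0.41 and 1.01. Smarcd1 was called lower with control centring (-0.52), with quantile normalization repeated, with array weights and without Gr1lo replicate 2. Smarcd3 was also called higher with array weights, without Gr1lo replicate 3 and without both replicate 3 arrays.

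The alternative ATPases of that complex differed in direction. Smarca4 (also known as Brg1) read 10.16, 10.26 and 10.10 in Gr1lo and 8.38, 8.79 and 8.57 in Gr1hi, and fell by 1.59 (SE 0.13, adjusted p = 7.61e-06). Smarca2 (Brm) read 8.97, 8.79 and 8.50 in Gr1lo and 9.47, 8.89 and 9.43 in Gr1hi. Its groups overlapped, and its rise of 0.51 (adjusted p = 0.0435) was lost without Gr1lo replicate 2, Gr1lo replicate 3, Gr1hi replicate 1 or Gr1hi replicate 3 and with control centring. The other Smarca2 probe set differed by 1.15 and was called.

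The other 3 tested Smarc genes fell on the deposited scale, after median centring and with control centring. Of all tested genes 31.8%, 18.2% and 38.1% fell in these settings. Smarca5, the ATPase of the ISWI spacing complexes, read 11.08, 11.29 and 10.96 in Gr1lo and 9.22, 9.08 and 9.19 in Gr1hi, a fall of 1.94 (SE 0.11, adjusted p = 9.69e-07) with its 3 other tested probe sets also called lower. Smarcad1, which acts behind replication forks, fell by 2.78 from 7.70 ± 0.37 to 4.93 ± 0.22. Its other tested probe set was called lower with a smaller difference of -0.61. Smarcal1, which anneals DNA strands at stalled forks, fell by 2.44 from 8.55 ± 0.11 to 6.10 ± 0.20. The other tested probe set of Smarcal1 was called lower with a difference of -1.21.

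Of 8 tested Chd remodellers 2 fell and 2 rose, beside 31.8% and 24.6% of all tested genes. Chd1l, which is recruited to DNA damage by poly(ADP-ribose), read 9.28, 9.36 and 9.41 in Gr1lo and 7.25, 7.39 and 6.92 in Gr1hi, a fall of 2.16 (SE 0.16, adjusted p = 3.06e-06). Chd9 fell by 1.82 from 7.13 ± 0.17 to 5.31 ± 0.35. Chd2 rose by 1.17 from 8.40 ± 0.19 to 9.58 ± 0.17 and Chd7, mutated in CHARGE syndrome, by 1.00 from 9.55 ± 0.16 to 10.55 ± 0.08. Chd4, the ATPase of the NuRD deacetylase complex, stood at 9.31 ± 0.18 and 9.55 ± 0.09 (adjusted p = 0.134), Chd1 at 8.56 ± 0.46 and 8.56 ± 0.19, and Chd8 at 9.01 ± 0.11 and 9.12 ± 0.17. These 3 and Chd6 were not called on the deposited scale, whereas Chd1, Chd4 and Chd8 were called higher after median centring. Chd4 was also called higher with array weights.

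Other probe sets of the same genes were compared with the ones used. Of 36 called members with another tested probe set 28 had at least 1 other called the same way, and 0 had one called the opposite way. The 8 without such support were Kdm4a, Kdm5a, Kmt2d, Setd3, Sirt5, Smarcd2, Smarce1 and Uhrf2. Among other probe sets with a mean of at least 4, 50 of 55 had the same sign as the one used. Among the 37 below that level 30 had the same sign, 14 were called, and the median size of the difference was 0.20, with the largest at 1.37.

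**Figure D3:**
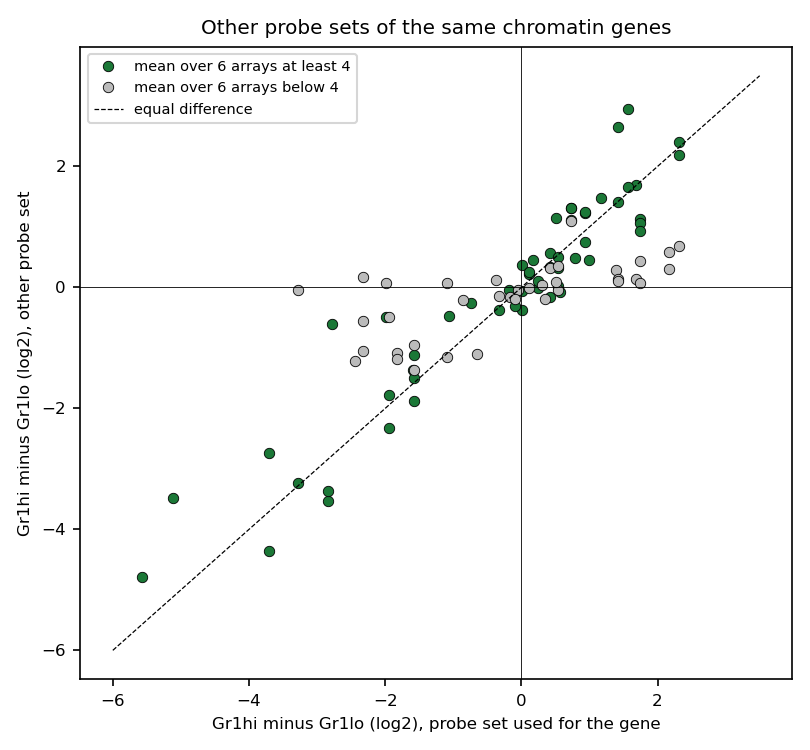
Difference (log2, Gr1hi minus Gr1lo) of each other tested probe set of a member (vertical axis) against that of the probe set used for the gene (horizontal axis); green points have a mean of at least 4 over the 6 arrays, grey points lie below it, and the dashed line marks equal differences. Of the 55 green points 50 have the same sign on both axes, as do 30 of the 37 grey points.

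Partner genes of these enzymes were taken from lists of complexes. Over all lists 54 of 103 tested genes fell (52.4%) and 18 rose (17.5%), beside 31.8% and 24.6% of all tested genes, with a median difference of -0.52. After median centring 31 fell and 49 rose, where 18.2% and 65.5% of all tested genes did. With control centring 62 fell and 9 rose, where 38.1% and 14.6% of all tested genes did. The centred counts of each list below stand beside these same shares. PRC2 partners fell in 6 of 7 genes: Rbbp7 and Rbbp4, histone chaperones shared with deacetylase complexes, fell by 2.68 and 1.24, whereas Phf1, an accessory subunit of PRC2, rose by 3.16 from 4.85 ± 0.17 to 8.01 ± 0.27. After median centring 4 of the 7 fell and 1 rose. In PRC1, the other Polycomb complex, 5 of 14 fell and 2 rose, while after median centring 2 fell and 9 rose and with control centring 7 fell and 0 rose. Bmi1 fell from 8.10 ± 0.36 to 4.66 ± 0.43 and Pcgf5 fell by 1.37. Pcgf6 was called lower too, but passed the filter through Gr1lo alone, with a Gr1hi mean of 2.54 at the absent-transcript level.

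Partners of the Kmt2 enzymes were lower or not called on the deposited scale. Of 10 tested COMPASS partners, core or accessory subunits of the Kmt2 and Setd1 complexes, 6 fell and 0 rose. After median centring 4 fell and 3 rose, beside 18.2% and 65.5% of all tested genes. With control centring 8 fell and 0 rose, beside 38.1% and 14.6%. The difference between the enzymes and their partners was not tested. Ash2l fell from 7.60 ± 0.27 to 3.78 ± 0.05, Dpy30 from 11.48 ± 0.27 to 8.64 ± 0.21 and Paxip1 by 3.03. In the histone acetyltransferase list 5 of 10 rose and 3 fell, 7 and 2 after median centring, and 3 and 3 with control centring. Hat1, which acetylates newly made histone, fell from 10.23 ± 0.19 to 6.05 ± 0.60, while Kat6a and Crebbp rose by 1.13 and 0.91.

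The other lists were lower or mixed on the deposited scale. Of all tested genes 18.2% fell and 65.5% rose after median centring, and 38.1% fell and 14.6% rose with control centring. Of 14 other SWI/SNF subunits 8 fell and 0 rose, and 4 fell and 7 rose after median centring. Actl6a fell by 3.08, Pbrm1 fell by 0.97 and Bcl7a fell by 1.22. Of 12 ISWI partners and INO80 family genes 8 fell and 2 rose (4 and 4 after median centring). Ruvbl1 fell by 3.38, Baz1b fell by 1.19 and Baz1a fell by 0.89. Of 11 other lysine methyltransferases 7 fell and 2 rose (5 and 4 after median centring). Nsd2 fell by 2.57, Ehmt2 fell by 2.31 and Setdb2 fell by 2.20. Of 7 arginine methyltransferases 4 fell and 0 rose (4 and 3 after median centring). Prmt1 fell by 3.66. Prmt5 and Prmt6 were called lower, but their Gr1hi means of 2.66 and 2.05 lay at the absent-transcript level and fewer than 3 Gr1hi arrays passed the filter, so no size is given for them. Deacetylase complex partners split into 6 higher and 6 lower of 14, into 8 and 2 after median centring and into 2 and 7 with control centring. Mta1 fell by 1.68, while Tbl1xr1 rose by 0.90 and Mbd2 rose by 0.59. Among 4 bromodomain readers Brd8 fell by 0.65 and 0 rose, and after median centring 0 fell and 3 rose.

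**Figure D4:**
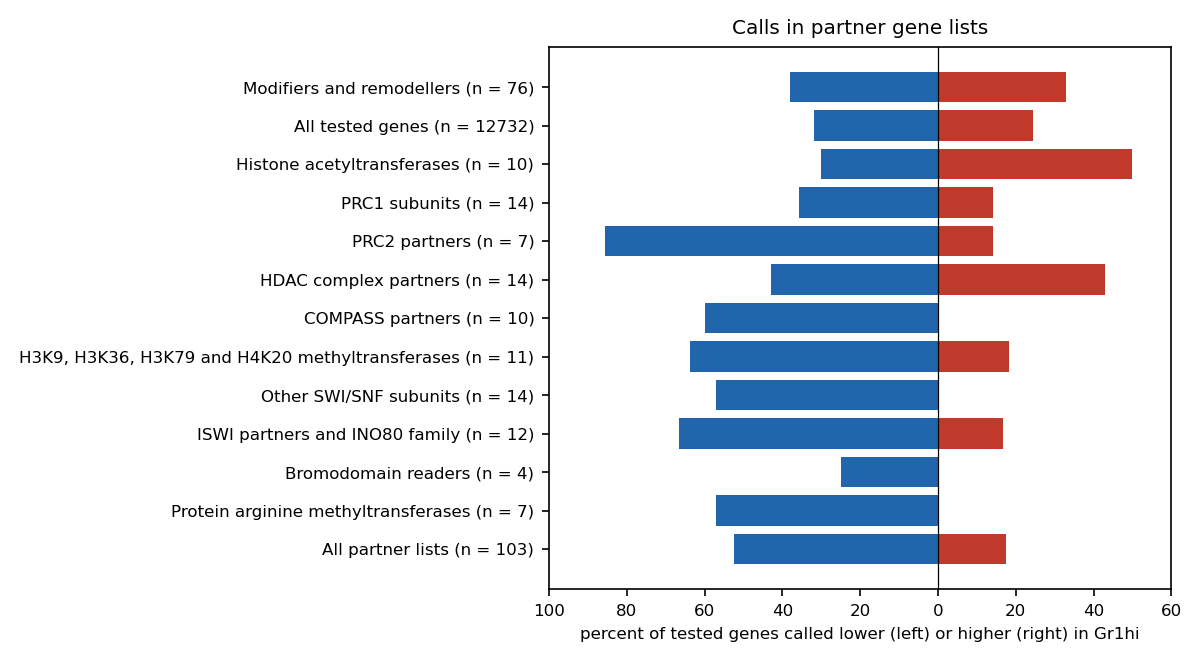
Percent of tested genes called lower (blue, left) or higher (red, right) in Gr1hi at a limma adjusted p under 0.05, for the members, all tested genes and each partner list, with the number tested in brackets. The partner lists together reach 52.4% lower against 31.8% of all tested genes. COMPASS partners, other SWI/SNF subunits, bromodomain readers and arginine methyltransferases each have 0 genes called higher.

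Cell cycle genes and markers of other cells moved between the groups as well. Of 19 tested cell cycle genes 18 fell and 0 rose, with a median difference of -3.41, and the summed log2 values ran from 210.6 to 214.0 in Gr1lo and from 138.1 to 144.1 in Gr1hi. Rrm2, Mcm5 and Top2a fell by 3.34, 4.27 and 2.78. In bulk samples fewer cycling cells and less RNA per cell cannot be told apart. Of 8 monocyte and macrophage markers found, 6 were tested and 3 rose (Csf1r, Cd68 and Adgre1), and the summed log2 values ran from 30.88 to 36.82 in Gr1lo and 44.04 to 50.42 in Gr1hi. Mertk and C1qa were at or near the absent-transcript level in both groups. Of 7 basophil, mast cell and eosinophil markers 4 were tested and 1 fell, with summed values of 23.31 to 28.53 and 19.10 to 30.85, and Mcpt8 varied between replicates (5.99 ± 1.27 and 5.33 ± 2.31). Of 7 lymphoid markers 3 were tested, 2 rose and 1 fell, with sums of 19.49 to 19.81 and 20.36 to 22.29, while Cd3e, Cd3g and Cd2 were at the absent-transcript level. The 2 that rose, Cd79a and Ms4a1, had Gr1lo means of 2.53 and 2.73, at the absent-transcript level, and Gr1hi means of 2.84 and 3.69. Cd79a exceeded the filter on 1 Gr1lo array and 3 Gr1hi arrays. Cd79b fell from a mean of 5.36 to 4.63. Of 5 dendritic cell markers 1 was tested and 0 were called, with sums of 11.31 to 11.55 and 12.20 to 12.57. Of 6 erythroid and megakaryocyte markers 3 were tested and 1 rose, with sums of 14.48 to 15.44 and 16.04 to 16.75. Of 6 stromal and endothelial markers 3 were tested and 2 rose, with sums of 14.82 to 14.97 and 16.10 to 16.72. No group mean of these last 3 lists was above 3.28. The part of these cells and of the cell cycle in the differences of the members was not tested.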

How the data were processed

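Total RNA of 6 sorted samples was labelled with biotin for Affymetrix 3′ arrays, per the labels' protocols. The authors deposited log2 values per probe set, summarised with GCRMA per the submitters' processing notes. The version of GCRMA is not given in the sources used here, and the table holds no detection calls. Probe sets were named through the platform annotation, and 34945 of 45101 had 1 symbol. Where a gene had several such probe sets, the one of highest mean was used. Genes stayed in the test if 3 or more of the 6 arrays exceeded that array's 40th percentile (12732 genes). The difference Gr1hi minus Gr1lo was fitted in limma 3.58.1 (R 4.3.3; lmFit, then eBayes with a trend). The tests were two-sided, and p-values were adjusted by Benjamini-Hochberg over these genes. The fit was tested on simulated data. The absent-transcript controls are 3 TrpnX probe sets. Median centring sets arrays to equal medians of the tested genes, and control centring to equal means of 18 hybridization controls. Promoter sequences and names are RefSeq's (81 member symbols matched), and proteins were not compared here. Named genes were all members and up to 3 genes of each partner list and of the cell cycle list with the smallest p; of marker lists, some were named after their values were seen. The members and lists were chosen with earlier results of these data known. The number of arrays limits the precision. Alternatives were other filters, probe set rules, variance models, scalings, array weights, a replicate block, arrays left out, a test against a 1.5-fold change and, added after seeing the data, leaving out probe sets marked s or x, which can match several transcripts. Figures were made with Python 3.11.15 and matplotlib 3.10.9.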

Additional observations from a re-analysis of the deposited data

How the results depend on the processing

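Of the 54 called members 31 kept their direction and call under all of 19 alternatives that tested them. After median centring 45 members were higher and 18 lower, and 49 partner genes were higher and 31 lower. Of all tested genes 65.5% were higher and 18.2% lower with that centring. In that setting Dnmt3b differed by 0.0172, Eed by 0.62, Hdac8 by 0.48, Kdm1a by 0.50, Setd5 by 0.58, Sirt6 by 0.61, Smarcd1 by 0.41 and Smarcd2 by 0.35, each against its sign on the deposited scale; the centring adds a constant to every gene's difference. With control centring 9 partner genes were higher, beside 14.6% of all tested genes. Quantile normalization repeated gave 27 members higher and 29 lower, and 21 partner genes higher and 51 lower. Tested against a 1.5-fold change, 13 members were higher and 21 lower, and 6 partner genes were higher and 33 lower. This ended the calls of 20 members. Of the rises these were Kdm3a, Kdm4b, Kdm5a, Kmt2b, Kmt2d, Kmt2e, Setd1b, Setd2, Setd3, Sirt7, Smarca2 and Tet2. Of the falls they were Dnmt3b, Hdac10, Sirt3, Sirt5, Smarcc2, Smarcd2, Smarce1 and Uhrf2. Leaving out 1 array at a time gave 22 to 25 members higher, 27 to 30 lower, 14 to 18 partner genes higher and 48 to 52 lower. Deviations of same-numbered arrays correlated by 0.17, 0.0043 and 0.15, so not every pair was over 0.1 and the numbers were not taken as pairs, although those of replicates 1 and 3 were the highest of 9 and Xist was high in both replicate 3 arrays. With the replicate number as a block 26 members were higher and 29 lower, and 17 partner genes were higher and 54 lower; of the members, Kdm3b gained a call and no other call changed. The values hold no detection calls, so differences near 2.77 are limited by background.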
